A study of Mus musculus with 12 samples.

Results

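The genes described here carry out glycolysis, lactate export and the response to low oxygen. Their 33 symbols were matched to the gene symbols of a count table of 51912 genes, and all 33 were found and passed the filter on low counts. They were listed by their known roles, with no expression value in the rule. The list was, however, chosen with earlier results of these data known. RNA-seq had been performed on bone marrow cells of C57BL/6 mice that carried retroviral vectors and were sorted as positive for the vectors' fluorescent markers and negative for mature lineage antigens. The 12 libraries formed 4 groups of 3, lettered A, B and C, which the series design calls biological replicates. The first group carried CSF3R T618I together with CEBPA V314VW, the second CSF3R T618I alone, the third CEBPA V314VW alone, and the last empty vector. CSF3R binds the cytokine G-CSF, and its T618I form signals without ligand. CEBPA is a master transcription factor of granulocytes, and V314VW changes its C-terminal DNA-binding part, as do many CEBPA mutations of acute myeloid leukemia. All groups, empty vector included, were transduced in a culture that held SCF, IL-6, IL-3 and medium conditioned by WEHI cells, so cytokines had been present for every library. Expression came from a retroviral promoter and not from the genes' own loci, and nothing in the labels says whether libraries of the same letter came from the same mouse.

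Glycolysis splits glucose into pyruvate in the cytoplasm, and lactate dehydrogenase then turns pyruvate into lactate, which leaves the cell through monocarboxylate transporters. HIF1A, the oxygen-regulated transcription factor, is kept low by prolyl hydroxylases when oxygen is plentiful and activates most genes of this pathway when oxygen is scarce. Blood progenitors and growth factor-stimulated myeloid cells are known for a high rate of glycolysis even with oxygen present.

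The table held raw read counts, with 44210071 to 67431235 counts and 21368 to 23262 detected genes per library. Levels are given below as CPM, read counts scaled to a common library size with TMM factors, and fold changes as log2 values with standard errors from the edgeR quasi-likelihood model of all 12 libraries. A gene passed when its p-value, adjusted by Benjamini-Hochberg over 16360 genes, was under 0.05, and only then is it said to have risen or fallen. The libraries were not uniform. Replicate C of CSF3R T618I stood apart in transcript length. Each gene's log2 level was taken as its deviation from the mean of its group. The median deviation of short genes minus that of long genes was -0.537 in replicate C. It was 0.407 in replicate A of that group and -0.281 to 0.228 in the other groups. Deviations within a group offset each other, so the values of A and C are not independent. Replicate C was also the highest of its group for 23 of the 33 genes, so results that rest on CSF3R T618I are given with and without it where it matters.

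Markers of other cell types moved with the groups. Of 13 tested erythroid markers 12 rose with CSF3R T618I over empty vector, and of 12 neutrophil markers 7 rose and 1 fell. With CEBPA V314VW over empty vector 4 erythroid markers fell and 0 rose, and 8 neutrophil markers fell and 1 rose. With both mutants 10 erythroid markers rose and 0 fell, and 2 neutrophil markers rose and 5 fell. Of all tested genes 10.0% rose and 9.66% fell with CSF3R T618I, 9.50% and 7.68% with CEBPA V314VW, and 10.7% each with both mutants. Of 8 mast cell and basophil markers, 7 fell with both mutants, 6 with CSF3R T618I and 4 with CEBPA V314VW over empty vector. Ly6g, a surface marker of mature neutrophils, averaged 2.69 CPM at most in any group. Summed erythroid markers lay at 795 to 815 CPM with both mutants, 1490 to 1970 with CSF3R T618I, 360 to 529 with CEBPA V314VW and 457 to 672 with empty vector. Neutrophil markers summed to 1920 to 2270 CPM with both mutants, 4050 to 9090 with CSF3R T618I, 840 to 1080 with CEBPA V314VW and 501 to 1090 with empty vector. Mmp8 alone held 1080 to 1280 CPM of these sums with both mutants and 688 to 989 with CEBPA V314VW. It held 29.6 to 128 CPM with CSF3R T618I and 3.83 to 7.54 with empty vector. Mmp8 was the 1 neutrophil marker that rose with CEBPA V314VW over empty vector, where 8 fell. Mast cell and basophil markers summed to 873 to 1000, 1790 to 2240, 2140 to 2260 and 3380 to 4320 CPM in the group order of the neutrophil sums. Progenitor markers summed to 717 to 730 CPM with both mutants, 408 to 546 with CSF3R T618I, 980 to 1150 with CEBPA V314VW and 925 to 1060 with empty vector, and monocyte and macrophage markers to 222 to 237, 216 to 371, 171 to 218 and 209 to 242 CPM in that order. Lymphoid markers did not exceed 1.47 CPM in sum in any library, and none of the listed markers was at 0 in all libraries. In these bulk samples a change in the share of a cell type and a change in RNA per cell cannot be told apart, and the part of these marker changes in the results below was not tested.

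Transcripts of the 33 genes together took 1.67 to 1.73% of all counts with both mutants, 1.57 to 1.72% with CSF3R T618I, 1.23 to 1.37% with CEBPA V314VW and 1.39 to 1.47% with empty vector. Against empty vector, CSF3R T618I came with a rise of 14 of the 33 genes, where 10.0% of all tested genes rose, and a fall of 2, where 9.66% fell. The median log2 fold change was 0.21 over the 33 genes and 0.01 over all tested genes. Without replicate C of CSF3R T618I the median of the 33 genes was 0.08, against 0 over all tested genes. Without replicate A or B of that group it was 0.34 or 0.26. With total counts in place of TMM scaling it was 0.09, against -0.097 over all tested genes. The 14 were the glucose transporters Slc2a1 and Slc2a3, the enzymes Pfkl, Aldoa, Tpi1, Pgk1, Pkm and Ldha, the lactate transporters Slc16a1 and Slc16a3, and the oxygen-response genes Hif1a, Egln3, Ankrd37 and Ddit4. The 2 that fell were the hexokinase Hk3 and the lactate dehydrogenase subunit Ldhb. Without replicate C of CSF3R T618I, 17.8% of all tested genes rose and 20.1% fell. Of the 33 genes 14 rose and 4 fell there, but they were not the same genes. Among those that rose Bnip3 (0.39, adjusted p = 0.0395) took the place of Hif1a (0.35, adjusted p = 0.057), and the regulator Pfkfb3 and the kinase Pdk1 were added to those that fell. The count of 14 fell to 5 when only these 2 groups were fitted, to 8 without empty vector A and to 9 without empty vector B, and with total counts in place of TMM scaling it was 11 higher and 4 lower. Of all tested genes 5.87%, 6.98%, 6.95% and 7.52% rose in these fits, in that order, and 15% fell with total counts.

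CEBPA V314VW alone raised 0 of the 33 genes against empty vector, where 9.50% of all tested genes rose, and lowered 9, where 7.68% fell. Their median was -0.23, against 0.00 over all tested genes. The 9 were Slc2a3, Hk2, Gpi1, Aldoc, Pfkfb4, Pkm, Ldhb, Slc16a3 and Ddit4. At an unadjusted p under 0.05 in edgeR 3 genes were higher and 14 lower. DESeq2 called 2 higher, Hif1a and Egln3, and total counts in place of TMM scaling called 3, these and the muscle-type phosphofructokinase Pfkm, beside 9 lower. Without replicate A of CSF3R T618I edgeR called 1 higher, and without its replicate C it called 2. Of all tested genes 8.75% rose with DESeq2, and 10.7% rose and 7.02% fell with total counts. Without those replicates A and C the shares that rose were 10.6% and 11.9%.

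**Figure D1:**
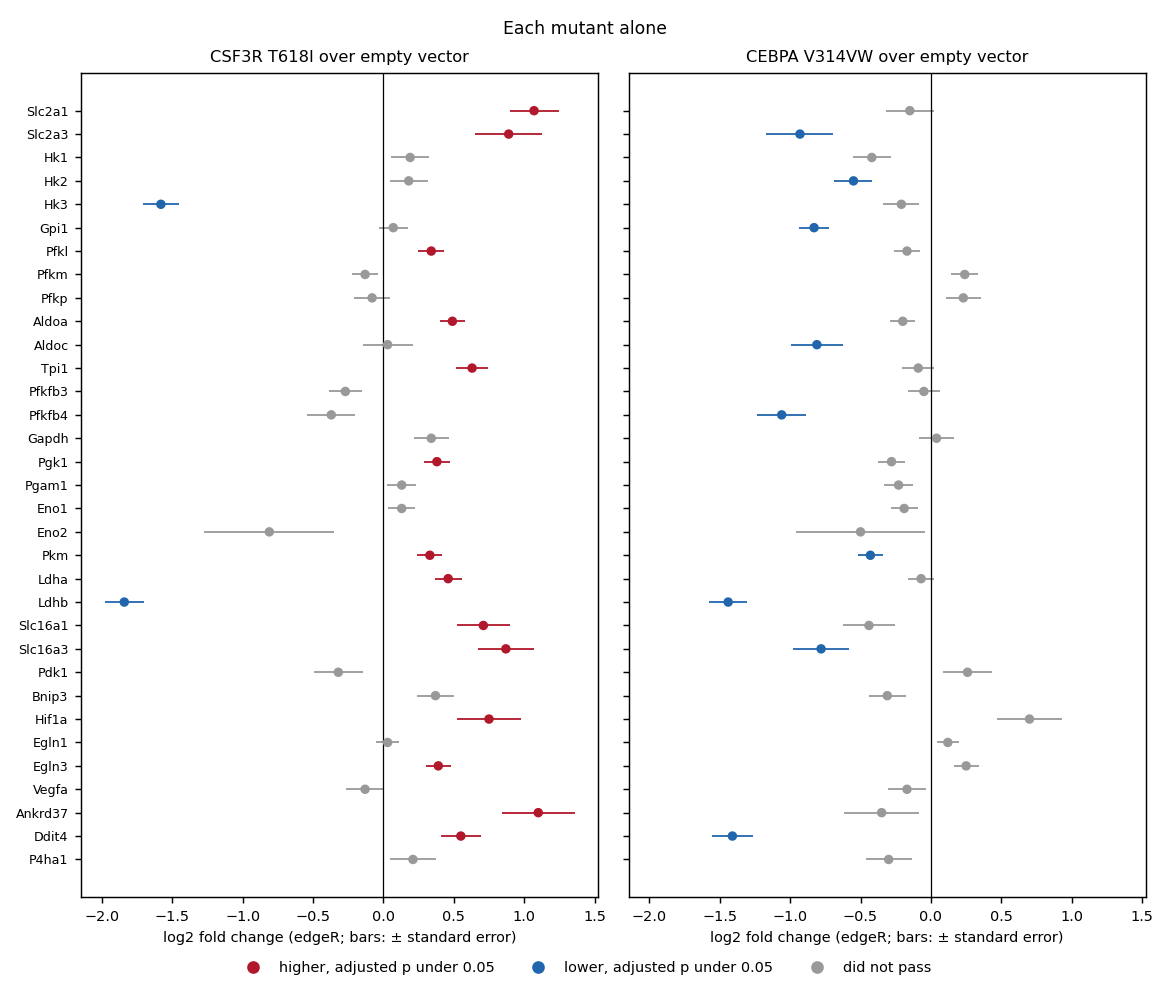
Log2 fold changes (x axis) of the 33 genes (y axis) for CSF3R T618I over empty vector (left) and CEBPA V314VW over empty vector (right), with standard errors as bars and colors for genes that passed the test. On the left 14 genes rose and Hk3 and Ldhb fell, and on the right 9 fell and none passed as higher.

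With both mutants 10 of the 33 genes rose against empty vector, where 10.7% of all tested genes rose, and 6 fell, where 10.7% fell. The 10 were Slc2a1, Pfkl, Pfkp, Aldoa, Tpi1, Ldha, Slc16a3, Bnip3, Hif1a and Egln3, and the 6 were Hk3, Gpi1, Aldoc, Pfkfb4, Ldhb and Ddit4. The same 3 libraries were then set against each single mutant. Adding CSF3R T618I to CEBPA V314VW raised 15 of the 33 genes, where 7.79% of all tested genes rose, and lowered 2, Hk3 and Ldhb, where 10.1% fell. Adding CEBPA V314VW to CSF3R T618I raised 4, namely Hk3, Pfkp, Pdk1 and Hif1a, where 8.43% of all tested genes rose, and lowered 6, where 10.1% fell. Those 6 were Slc2a3, Gpi1, Aldoc, Pfkfb4, Ldhb and Ddit4. The median log2 fold change of the 33 genes was 0.16 for both mutants over empty vector, 0.34 over CEBPA V314VW and -0.12 over CSF3R T618I, while over all tested genes these medians lay between -0.02 and 0.01. Without replicate C of CSF3R T618I the median over CSF3R T618I was 0.03, and without its replicate A or B -0.13 or -0.11. Without replicate C 5 of the 33 genes rose over CSF3R T618I and 7 fell, where 20.4% and 19.1% of all tested genes did. The comparisons between groups share libraries and are not independent of each other.

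The interaction term asks whether the effect of CSF3R T618I differed with and without CEBPA V314VW. It passed as higher for 1 of the 33 genes, Hk3, where 0.501% of all tested genes did, and as lower for 0, where 1.27% did. At an unadjusted p under 0.05 in edgeR 5 genes were higher and 0 lower, and DESeq2 also called 0 lower. Without replicate C of CSF3R T618I the term also passed for Hk2, Pfkp, Pdk1 and Hif1a, which made 5. In that fit 5.99% of all tested genes passed as higher. An interaction that missed the threshold is not shown to be absent, and its standard error ran up to 0.658 on the log2 scale, for the scarce enolase Eno2.

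**Figure D2:**
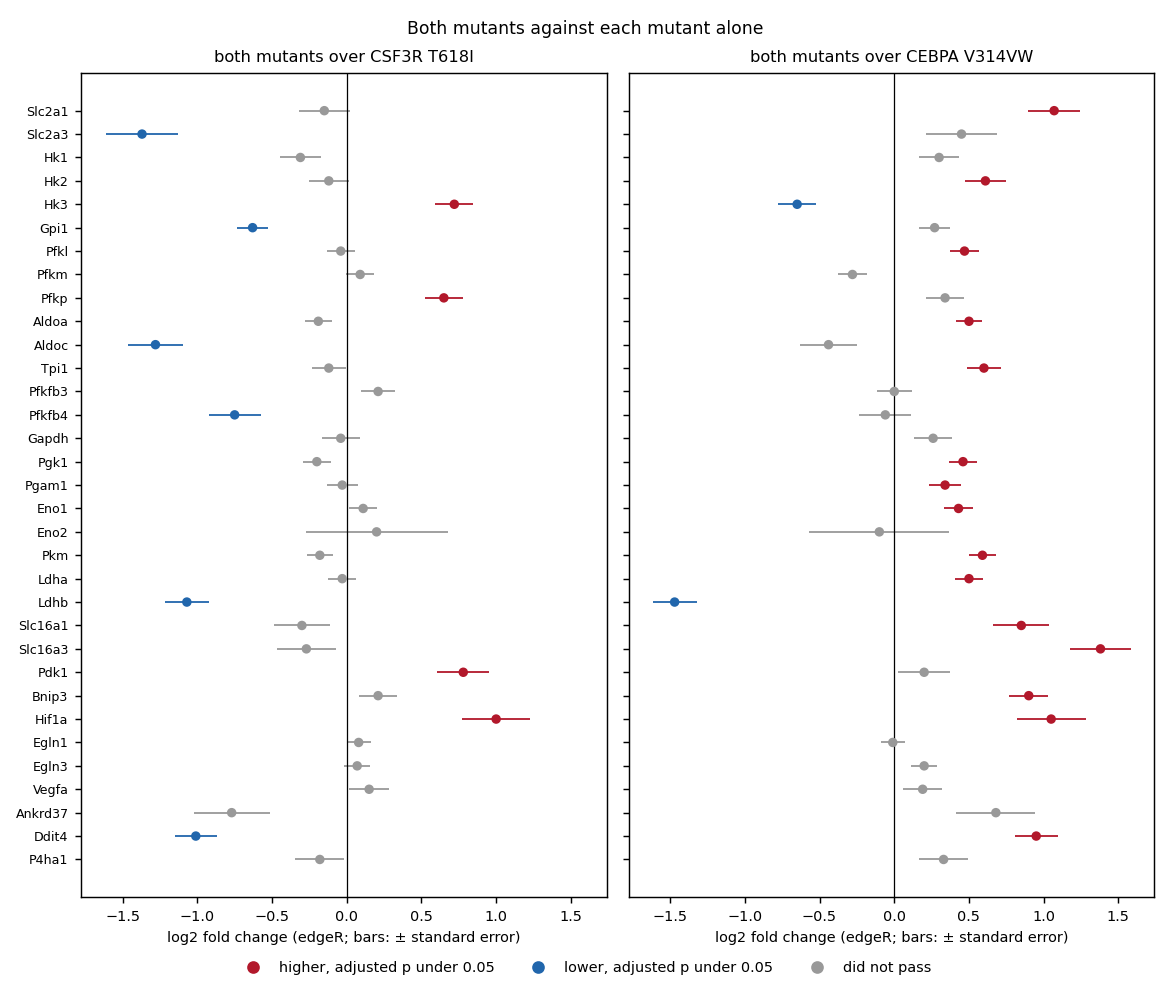
Log2 fold changes (x axis) of the 33 genes (y axis) for both mutants over CSF3R T618I (left) and over CEBPA V314VW (right), with standard errors as bars and colors for genes that passed the test. On the right 15 genes rose and 2 fell, and on the left 4 rose and 6 fell.

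HIF1A binds the core letters ACGTG or GCGTG, so promoter stretches of 8 genes that the results turn on, chosen to hold such a core, are shown here with the core, on either strand, in capitals. They come from the RefSeq promoter table on GRCm38.p6, which held 46 windows of 250 bases before to 50 after a start site for 32 of the 33 genes. Each stretch lies wholly or mostly before the start site of a protein-coding gene and is written 5′ to 3′ on the strand of the gene.
Slc2a1, chr4:119108657-119108716, plus strand: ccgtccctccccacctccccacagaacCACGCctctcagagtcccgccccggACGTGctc
Slc16a3, chr11:120949013-120949066, plus strand: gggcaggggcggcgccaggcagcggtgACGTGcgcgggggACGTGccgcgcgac
Ldha, chr7:46845632-46845691, plus strand: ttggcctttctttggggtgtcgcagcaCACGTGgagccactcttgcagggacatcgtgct
Bnip3, chr7:138909591-138909650, minus strand: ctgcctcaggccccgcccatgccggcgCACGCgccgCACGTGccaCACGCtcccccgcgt
Ddit4, chr10:59951925-59951984, minus strand: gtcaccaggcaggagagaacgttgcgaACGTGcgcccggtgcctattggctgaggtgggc
Hif1a, chr12:73907705-73907764, plus strand: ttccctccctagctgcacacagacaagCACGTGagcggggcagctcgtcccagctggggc
Hk3, chr13:55021509-55021568, minus strand: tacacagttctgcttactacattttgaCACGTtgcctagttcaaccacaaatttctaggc
Ldhb, chr6:142508051-142508110, minus strand: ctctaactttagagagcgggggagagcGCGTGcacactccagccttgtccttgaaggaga
The first 6 genes rose in at least 1 comparison and the last 2 fell with CSF3R T618I over empty vector. Directions were mixed, since Hk3 rose with both mutants over CSF3R T618I, and Slc16a3 and Ddit4 fell with CEBPA V314VW over empty vector. Where the capitals read CACGTG, the core is present on both strands at overlapping positions.

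Among the 46 windows, 26 held ACGTG or its reverse complement (56.5%), against 19.6% of all 32817 windows of the same length in the table. The core GCGTG was also in 26 windows (56.5%, against 32.4%), and either core was in 37 (80.4%, against 43.8%), which covered 29 of the 32 genes. The STAT motif TTCNNNGAA, the letters bound by the factors downstream of CSF3R, was in 2 windows (4.35%, against 8.29%), those of Aldoc and Pfkm. The CEBP motif TTGCNNAA was also in 2 (4.35%, against 10.8%), those of Pfkm and Pkm. Windows were not matched for base composition, both strands were searched, and a match is a description of the letters alone.

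Glucose enters these cells through the transporters Slc2a1 (GLUT1), the widespread form, and Slc2a3 (GLUT3), a high-affinity form. Slc2a1 had 108, 114 and 121 CPM with both mutants, 101, 115 and 165 with CSF3R T618I, 47.3, 59.4 and 56.9 with CEBPA V314VW, and 67.2, 64.7 and 49.6 with empty vector. All 6 libraries with CSF3R T618I lay above all 6 without it. It rose 2.10-fold with CSF3R T618I over empty vector (log2 1.07 ± 0.174 SE, adjusted p = 0.000728) and by the same log2 1.07 ± 0.174 when CSF3R T618I was added to CEBPA V314VW (adjusted p = 0.000762). Without replicate C of CSF3R T618I the rise over empty vector was 0.84 (adjusted p = 0.000429). The rise over CEBPA V314VW was 1.07 in that fit (adjusted p = 2.83e-05). With all 12 libraries the interaction of Slc2a1 was 0.00 ± 0.244 on the log2 scale. CEBPA V314VW alone gave -0.15 ± 0.172 (adjusted p = 0.668).

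Slc2a3 had 65.8, 70.8 and 71.4 CPM with both mutants, 129, 152 and 258 with CSF3R T618I, 43.9, 57.0 and 51.7 with CEBPA V314VW, and 122, 96.4 and 71.8 with empty vector. Unlike Slc2a1, it was low in both groups that carried CEBPA V314VW. It rose with CSF3R T618I over empty vector (0.89 ± 0.237, adjusted p = 0.0181) and fell with CEBPA V314VW over empty vector (-0.93 ± 0.238, adjusted p = 0.0162). With both mutants over CSF3R T618I it changed by -1.37 ± 0.24 (adjusted p = 0.00143), or -1.02 (adjusted p = 8e-04) without CSF3R T618I C. Without replicate C the rise with CSF3R T618I was 0.54 (adjusted p = 0.0277). That rise was no longer past the threshold without empty vector B (0.89, adjusted p = 0.0602) or C (0.68, adjusted p = 0.0758), and the fall with CEBPA V314VW was not past it without empty vector A (-0.74, adjusted p = 0.0651) or CEBPA V314VW A (-0.84, adjusted p = 0.0663). Parts of Slc2a3 transcripts are near-identical to transcripts of 74 other genes, so its count may hold reads of others. Per kilobase of annotated exon, Slc2a1 made up 77.3 ± 0.412% of the 2 transporters' CPM with both mutants, 59.9 ± 2.68% with CSF3R T618I, 68.9 ± 0.604% with CEBPA V314VW and 56.7 ± 3.02% with empty vector (mean ± SD, n = 3 each).

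Hexokinases commit glucose to the pathway by phosphorylating it. Hk3, the isoform typical of myeloid cells, had 245, 262 and 259 CPM with both mutants, 133, 142 and 189 with CSF3R T618I, 366, 403 and 432 with CEBPA V314VW, and 491, 475 and 419 with empty vector. The groups fell into 3 levels, lowest with CSF3R T618I, in between with both mutants and highest in the other 2 groups, whose ranges overlapped. Hk3 fell with CSF3R T618I over empty vector (-1.58 ± 0.13, adjusted p = 2.69e-06), and less when CSF3R T618I was added to CEBPA V314VW (-0.65 ± 0.127, adjusted p = 0.00285). The difference between these effects, the interaction, was 0.93 ± 0.179 (adjusted p = 0.0201). The interaction lost its place past the threshold without empty vector B (0.91, adjusted p = 0.0709), CSF3R T618I B (0.87, adjusted p = 0.0583), or both mutants A (0.96, adjusted p = 0.0557), B (0.91, adjusted p = 0.0740) or C (0.92, adjusted p = 0.0651).

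Hk2, the inducible isoform that binds mitochondria, had 111, 113 and 106 CPM with both mutants, 101, 115 and 143 with CSF3R T618I, 63.2, 71.5 and 81.8 with CEBPA V314VW, and 112, 110 and 94.5 with empty vector. Only the CEBPA V314VW libraries lay apart. It fell with CEBPA V314VW over empty vector (-0.55 ± 0.135, adjusted p = 0.0130, and 0.0545 without empty vector B) and rose by 0.61 ± 0.135 when CSF3R T618I was added (adjusted p = 0.00687). Hk1, the housekeeping isoform, passed in no comparison in the edgeR model described above, with -0.42 ± 0.135 for CEBPA V314VW over empty vector (adjusted p = 0.0524). It lay at the threshold there, since DESeq2 called it lower (-0.43, adjusted p = 0.0316), as did edgeR without empty vector C (-0.51, adjusted p = 0.0396) or CSF3R T618I A (adjusted p = 0.0201) or C (adjusted p = 0.00614). Per kilobase, Hk3 took 52.1 ± 1.10% of the 3 hexokinases' CPM with both mutants, 35.6 ± 0.817% with CSF3R T618I, 69.0 ± 0.238% with CEBPA V314VW and 65.3 ± 1.09% with empty vector. Hk1 was the larger share with CSF3R T618I, at 47.3 ± 0.652%, against 25.5 ± 1.28% with empty vector. Replicate C, high for most glycolytic genes, did not stand apart in these shares, since its Hk3 share was 35.7%, against 36.4% and 34.8% in A and B.

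**Figure D3:**
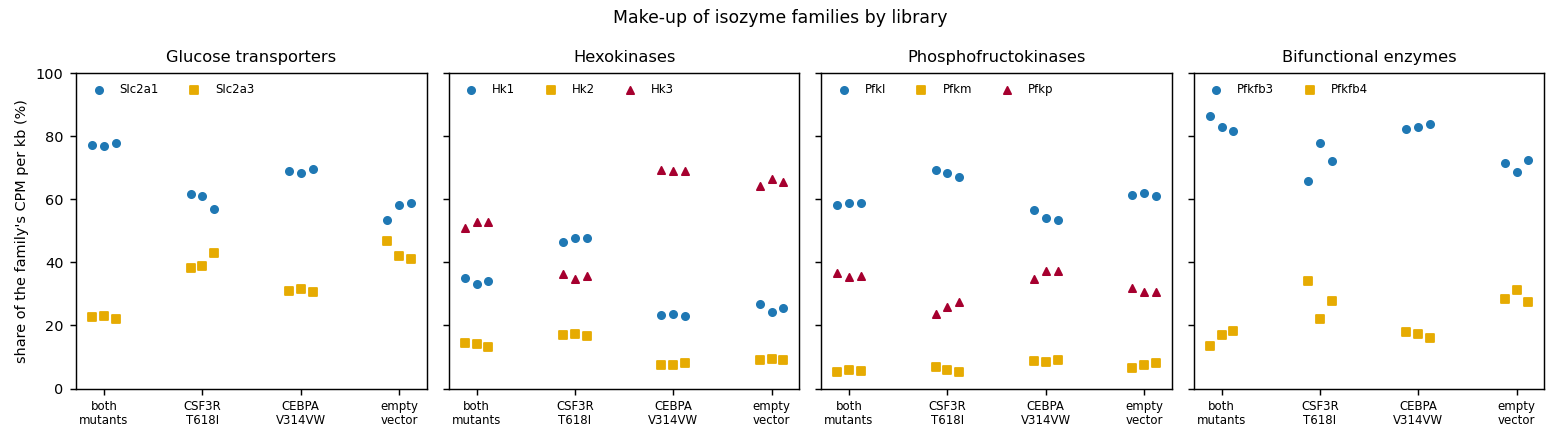
Share of each isozyme (y axis, percent of the family's CPM per kilobase of annotated exon) in each of the 12 libraries by group, for glucose transporters, hexokinases, phosphofructokinases and bifunctional enzymes. Points are libraries, the Hk3 share is lowest with CSF3R T618I, at 34.8 to 36.4%, and the Slc2a1 share is highest with both mutants, at 76.9 to 77.8%.

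In upper glycolysis, Gpi1, which converts glucose 6-phosphate to fructose 6-phosphate, followed CEBPA V314VW. It averaged 605 ± 13.1 CPM with both mutants, 935 ± 112 with CSF3R T618I, 501 ± 53.2 with CEBPA V314VW and 891 ± 26.2 with empty vector (mean ± SD, n = 3 each). The 6 libraries with CEBPA V314VW all lay below the 6 without it. It fell with CEBPA V314VW over empty vector (-0.83 ± 0.104, adjusted p = 8.85e-05) and when CEBPA V314VW was added to CSF3R T618I (-0.63 ± 0.104, adjusted p = 0.00093), while CSF3R T618I over empty vector gave 0.07 ± 0.103 (adjusted p = 0.684). Gpi1 shares near-identical stretches with other transcripts, mainly of Wdr33.

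Phosphofructokinase, the main regulated step of the pathway, has 3 isoforms. Pfkl, the liver type, rose by 0.34 ± 0.0938 with CSF3R T618I over empty vector (adjusted p = 0.0231), by 0.29 ± 0.0938 with both mutants over empty vector (adjusted p = 0.0408) and by 0.47 ± 0.0939 with both mutants over CEBPA V314VW (adjusted p = 0.00347). The first was lost without empty vector A, B or C or CSF3R T618I B (adjusted p = 0.0537 to 0.0738), and the second without any of 9 libraries, all but CSF3R T618I A and C and CEBPA V314VW A (adjusted p = 0.0563 to 0.133). Pfkp, the platelet type, went with the combination. Its levels were 539, 536 and 540 CPM with both mutants, 271, 342 and 416 with CSF3R T618I, 407, 420 and 445 with CEBPA V314VW, and 380, 357 and 348 with empty vector, and all 3 libraries with both mutants lay above the other 9. It rose with both mutants over empty vector (0.57 ± 0.126, adjusted p = 0.00517) and over CSF3R T618I (0.65 ± 0.127, adjusted p = 0.00297), while over CEBPA V314VW it gave 0.34 ± 0.126 (adjusted p = 0.0829), or 0.35 without CSF3R T618I A (adjusted p = 0.0125) or C (adjusted p = 0.0109). Pfkp shares 748 exon bases with Pitrm1 on the opposite strand, whose counts were 44.01% of its own, and the strand setting of the counting is not given, so its value is uncertain. Pfkm, the muscle type, passed in no comparison in the edgeR model described above. DESeq2 called it lower with both mutants over CEBPA V314VW (-0.27, adjusted p = 0.0388). Total counts in edgeR called it lower there too (-0.36, adjusted p = 0.0141), as did the length trend taken out (-0.27, adjusted p = 0.0393). It also overlaps a more abundant gene, Senp1, by 18 bases.

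Aldoa, the aldolase that splits fructose bisphosphate, rose in all 3 comparisons that put CSF3R T618I or both mutants over a group without CSF3R T618I. It had 1370, 1400 and 1450 CPM with both mutants, 1590, 1580 and 1620 with CSF3R T618I, 1090, 898 and 989 with CEBPA V314VW, and 1060, 1150 and 1210 with empty vector. The 6 libraries with CSF3R T618I lay above the 6 without it. The log2 fold change was 0.49 ± 0.0891 for CSF3R T618I over empty vector (adjusted p = 0.00173) and 0.50 ± 0.0891 for both mutants over CEBPA V314VW (adjusted p = 0.00147). For both mutants over empty vector it was 0.30 ± 0.0889 (adjusted p = 0.0283), which did not pass without empty vector A or B or without any of the libraries with both mutants (adjusted p = 0.0659 to 0.112).

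Tpi1, triosephosphate isomerase, had 818, 868 and 880 CPM with both mutants, 1010, 948 and 831 with CSF3R T618I, 619, 506 and 565 with CEBPA V314VW, and 524, 617 and 663 with empty vector. Again the libraries with CSF3R T618I lay above those without it. It rose by 0.63 ± 0.113 over empty vector with CSF3R T618I (adjusted p = 0.00152) and by 0.51 ± 0.113 with both mutants (adjusted p = 0.00531). In Tpi1, unlike in most of the 33 genes, replicate C of CSF3R T618I was the lowest of its group.

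Aldoc, the scarce brain-type aldolase, fell where CEBPA V314VW was present. It had 1.46, 1.52 and 1.24 CPM with both mutants, 3.72, 3.38 and 3.17 with CSF3R T618I, 1.94, 1.57 and 2.22 with CEBPA V314VW, and 2.86, 3.69 and 3.49 with empty vector. The ranges of the groups with and without CEBPA V314VW did not overlap. The log2 fold change was -1.28 ± 0.187 for both mutants over CSF3R T618I (adjusted p = 0.000353), -1.25 ± 0.187 for both mutants over empty vector (adjusted p = 0.000292) and -0.81 ± 0.183 for CEBPA V314VW over empty vector (adjusted p = 0.00733). Per kilobase it made up at most 0.287% of the aldolase CPM in any library.

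The bifunctional enzymes Pfkfb3 and Pfkfb4 set the level of fructose 2,6-bisphosphate, an activator of phosphofructokinase. Pfkfb4 had 5.10, 7.12 and 7.37 CPM with both mutants, 12.2, 8.52 and 12.4 with CSF3R T618I, 6.79, 6.83 and 6.84 with CEBPA V314VW, and 14.7, 15.6 and 12.5 with empty vector. It too was lower in every library with CEBPA V314VW than in any without it. It fell by 1.06 on the log2 scale with CEBPA V314VW over empty vector (± 0.173 SE, adjusted p = 0.000755), and the log2 fold change was -0.75 ± 0.173 for both mutants over CSF3R T618I (adjusted p = 0.0085). Pfkfb3 passed in no comparison in the edgeR model described above. It fell with CSF3R T618I over empty vector without that group's replicate C (-0.36, adjusted p = 0.0217) or with total counts (-0.38, adjusted p = 0.0282).

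In lower glycolysis no change that passed exceeded 0.59 on the log2 scale. Pkm, pyruvate kinase, had 2130, 2160 and 2220 CPM with both mutants, 2240, 2420 and 2700 with CSF3R T618I, 1510, 1320 and 1500 with CEBPA V314VW, and 1930, 1940 and 1970 with empty vector. CEBPA V314VW alone was the low group. Pkm fell by 0.43 on the log2 scale with CEBPA V314VW over empty vector (± 0.0885 SE, adjusted p = 0.00379) and rose by 0.59 ± 0.0887 when CSF3R T618I was added (adjusted p = 0.000415). Its rise of 0.33 ± 0.0885 with CSF3R T618I over empty vector (adjusted p = 0.0180) was lost without empty vector A or B or CSF3R T618I B (adjusted p = 0.0514 to 0.0711).

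Pgk1, phosphoglycerate kinase, rose with CSF3R T618I over empty vector by 0.38 ± 0.0933 (adjusted p = 0.0111, and 0.0621 without empty vector A) and with both mutants over CEBPA V314VW by 0.46 ± 0.0934 (adjusted p = 0.00362). Eno1, the main enolase, rose with both mutants over CEBPA V314VW, by 0.43 ± 0.0959 (adjusted p = 0.00734). Pgam1, phosphoglycerate mutase, passed there as well, at 0.34 ± 0.105 (adjusted p = 0.044), and missed the threshold without any of 8 libraries: empty vector B, CSF3R T618I B and all 6 libraries of the 2 groups compared (adjusted p = 0.0645 to 0.156). Gapdh, often used as a reference gene, passed in no comparison in the edgeR model described above, with 0.34 ± 0.126 for CSF3R T618I over empty vector (adjusted p = 0.078). That comparison passed without empty vector C (0.40, adjusted p = 0.0491) or CEBPA V314VW A (0.31, adjusted p = 0.043). With the length trend taken out Gapdh passed there too (0.34, adjusted p = 0.0417). Its transcript is near-identical to parts of 152 other genes, of which 144 are pseudogenes, so its count is uncertain. The neuronal enolase Eno2 stayed at 0.233 to 0.741 CPM and passed in no comparison.

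Lactate dehydrogenase is built from the subunits Ldha, which favors making lactate, and Ldhb, which favors its use. Ldha had 3670, 3850 and 3970 CPM with both mutants, 4060, 4000 and 3660 with CSF3R T618I, 2930, 2490 and 2720 with CEBPA V314VW, and 2560, 2850 and 3110 with empty vector. The libraries with CSF3R T618I lay above those without it. The rise was 0.46 ± 0.0952 for CSF3R T618I over empty vector (adjusted p = 0.00416), 0.43 ± 0.0951 for both mutants over empty vector (adjusted p = 0.00518) and 0.50 ± 0.0952 for both mutants over CEBPA V314VW (adjusted p = 0.00239).

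Ldhb moved the other way and by more. It had 1.37, 1.21 and 1.30 CPM with both mutants, 2.58, 2.68 and 2.89 with CSF3R T618I, 3.81, 3.32 and 3.65 with CEBPA V314VW, and 8.86, 9.38 and 11.0 with empty vector. The 4 groups did not overlap, and each mutant came with a lower level whether or not the other was present. Ldhb fell with CSF3R T618I over empty vector (-1.84 ± 0.139, adjusted p = 1.19e-06), with CEBPA V314VW over empty vector (-1.44 ± 0.136, adjusted p = 8.95e-06) and with both mutants over empty vector (-2.91 ± 0.148, adjusted p = 3.06e-08). Added to the other mutant, CEBPA V314VW gave -1.07 ± 0.148 (adjusted p = 0.000238) and CSF3R T618I -1.47 ± 0.147 (adjusted p = 1.41e-05). The interaction was 0.37 ± 0.20 (adjusted p = 0.532). The summed mast cell and basophil markers were likewise highest with empty vector and lowest with both mutants, and their part in the Ldhb result was not tested. Per kilobase, Ldhb was 0.0712 ± 0.0065% of the 2 subunits' CPM with both mutants, 0.147 ± 0.0172% with CSF3R T618I, 0.279 ± 0.00496% with CEBPA V314VW and 0.717 ± 0.0264% with empty vector.

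**Figure D4:**
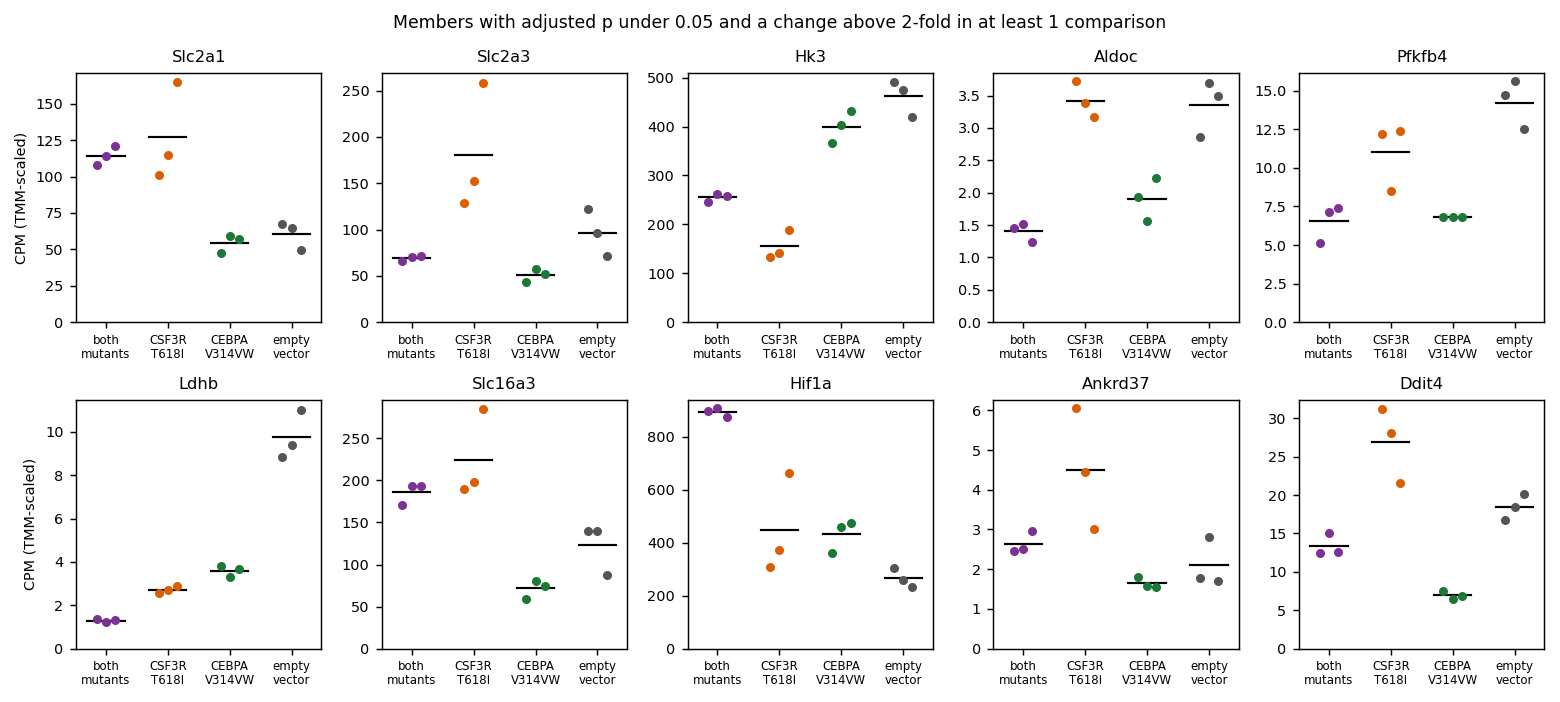
CPM on TMM-scaled library sizes (y axis, from 0) of the 10 genes that passed the test with a change above 2-fold in at least 1 comparison, by group, where points are libraries A, B and C and black lines are group means. Ldhb lies at 1.21 to 1.37 CPM with both mutants and 8.86 to 11.0 with empty vector, and Hif1a at 872 to 906 and 234 to 305.

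Lactate leaves through Slc16a3 (MCT4), the exporter of glycolytic cells, and Slc16a1 (MCT1), which carries it both ways. Slc16a3 had 171, 194 and 194 CPM with both mutants, 190, 198 and 285 with CSF3R T618I, 59.1, 80.4 and 75.0 with CEBPA V314VW, and 140, 140 and 87.7 with empty vector. CEBPA V314VW alone was below every other group, and the libraries with CSF3R T618I were above every other. Adding CSF3R T618I to CEBPA V314VW raised it 2.60-fold (log2 1.38 ± 0.201, adjusted p = 0.000327), and CSF3R T618I over empty vector gave 0.87 ± 0.199 (adjusted p = 0.00766). CEBPA V314VW alone lowered it (-0.78 ± 0.199, adjusted p = 0.0157), a call lost without empty vector A or B or CEBPA V314VW A (adjusted p = 0.0578 to 0.0734). Both mutants over empty vector gave 0.60 ± 0.198 (adjusted p = 0.0465), which 8 of the 12 libraries could each undo by being left out, all but empty vector A, CSF3R T618I A and C and CEBPA V314VW A, with 0.39 (adjusted p = 0.188) without empty vector C.

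Slc16a1 had 415, 438 and 434 CPM with both mutants, 437, 488 and 661 with CSF3R T618I, 168, 276 and 269 with CEBPA V314VW, and 359, 323 and 287 with empty vector. It followed Slc16a3 in order. It rose by 0.85 ± 0.188 when CSF3R T618I was added to CEBPA V314VW (adjusted p = 0.00645) and by 0.71 ± 0.187 over empty vector (adjusted p = 0.0178), the second lost without empty vector B (0.71, adjusted p = 0.0593) or C (0.60, adjusted p = 0.0785). The share of Slc16a3 in the 2 transporters' CPM per kilobase was 26.5 ± 0.88% with both mutants, 26.1 ± 0.741% with CSF3R T618I, 20.3 ± 2.05% with CEBPA V314VW and 23.8 ± 3.17% with empty vector.

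Pdk1 and Bnip3 divert pyruvate and mitochondria when oxygen is low. Pdk1 is the kinase that turns off pyruvate dehydrogenase, and Bnip3 marks mitochondria for removal. Pdk1 had 155, 154 and 153 CPM with both mutants, 65.3, 84.8 and 119 with CSF3R T618I, 121, 137 and 145 with CEBPA V314VW, and 127, 110 and 100 with empty vector. It was highest with both mutants and spread widely with CSF3R T618I alone. It rose by 0.78 ± 0.175 with both mutants over CSF3R T618I (adjusted p = 0.00731), and CSF3R T618I over empty vector gave -0.32 ± 0.174 (adjusted p = 0.218), or -0.58 (adjusted p = 0.00355) without its replicate C.

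Bnip3 had 48.6, 50 and 47.5 CPM with both mutants, 41.4, 44.0 and 40.7 with CSF3R T618I, 26.7, 24.0 and 27.5 with CEBPA V314VW, and 28.6, 40.6 and 28.2 with empty vector. The groups with and without CSF3R T618I did not overlap, though empty vector B came close. It rose with both mutants over CEBPA V314VW (0.90 ± 0.131, adjusted p = 0.000317) and over empty vector (0.59 ± 0.13, adjusted p = 0.00534). CSF3R T618I alone over empty vector gave 0.37 ± 0.13 (adjusted p = 0.0619). That comparison passed without empty vector B (0.56, adjusted p = 0.00336) and without CSF3R T618I C (0.39, adjusted p = 0.0395).

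Hif1a, the oxygen-regulated subunit itself, was the member with the largest rise. It had 898, 906 and 872 CPM with both mutants, 306, 370 and 664 with CSF3R T618I, 361, 460 and 472 with CEBPA V314VW, and 305, 257 and 234 with empty vector. The libraries with both mutants lay above all others, and replicate C of CSF3R T618I stood between them and the rest. It rose 3.36-fold with both mutants over empty vector (log2 1.75 ± 0.234, adjusted p = 0.000121), by 1.0 ± 0.229 over CSF3R T618I (adjusted p = 0.00854) and by 1.05 ± 0.23 over CEBPA V314VW (adjusted p = 0.00627). CSF3R T618I alone gave 0.75 ± 0.229 (adjusted p = 0.036), which fell to 0.35 (adjusted p = 0.057) without its replicate C and missed the threshold without any of 9 libraries, all but CSF3R T618I A and B and CEBPA V314VW A (adjusted p = 0.0515 to 0.117). CEBPA V314VW alone gave 0.70 ± 0.228 (adjusted p = 0.0538), or 0.70 (adjusted p = 0.000848) without that same replicate C. The interaction was 0.30 ± 0.321 (adjusted p = 0.715), and 0.70 (adjusted p = 0.0336) without replicate C. These values are transcript levels, and HIF1A activity is set mainly at the protein, which was not measured here.

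The prolyl hydroxylases that mark HIF1A for degradation moved little. Egln3 (PHD3), itself induced by HIF1A, had 74.1, 76.9 and 80.4 CPM with both mutants, 72.4, 74.2 and 74.4 with CSF3R T618I, 71.8, 61.9 and 67.2 with CEBPA V314VW, and 52.8, 59.8 and 56.4 with empty vector. The empty vector libraries were the lowest 3 of the 12. It rose by 0.45 ± 0.0882 with both mutants over empty vector (adjusted p = 0.00212) and by 0.39 ± 0.0882 with CSF3R T618I (adjusted p = 0.00746). Egln1 (PHD2), the main sensor, ran from 83.3 to 99.7 CPM over all 12 libraries and passed in no comparison.

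Ddit4 (REDD1), a stress-induced inhibitor of mTORC1, passed in all 5 comparisons of groups, as did Ldhb and no other of the 33 genes. It had 12.5, 15 and 12.6 CPM with both mutants, 31.2, 28.1 and 21.6 with CSF3R T618I, 7.49, 6.43 and 6.88 with CEBPA V314VW, and 16.8, 18.4 and 20.1 with empty vector. The 4 groups did not overlap and ran in the order CEBPA V314VW, both mutants, empty vector, CSF3R T618I. It fell with CEBPA V314VW over empty vector (-1.41 ± 0.145, adjusted p = 1.83e-05) and when CEBPA V314VW was added to CSF3R T618I (-1.01 ± 0.142, adjusted p = 0.000277), and it rose by 0.95 ± 0.145 when CSF3R T618I was added to CEBPA V314VW (adjusted p = 0.000489). The rise with CSF3R T618I over empty vector (0.55 ± 0.14, adjusted p = 0.0151) was lost without empty vector A or B or CSF3R T618I A or B (adjusted p = 0.0518 to 0.0824). The fall with both mutants over empty vector (-0.47 ± 0.141, adjusted p = 0.0322) was lost without empty vector B or C or both mutants A or C (adjusted p = 0.0819 to 0.121).

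Ankrd37, a small ankyrin-repeat gene induced by HIF1A, had 2.45, 2.51 and 2.95 CPM with both mutants, 6.05, 4.44 and 3.0 with CSF3R T618I, 1.80, 1.57 and 1.56 with CEBPA V314VW, and 1.78, 2.80 and 1.71 with empty vector. It was highest with CSF3R T618I, where its 3 libraries were also the most spread. It rose by 1.10 ± 0.258 over empty vector (adjusted p = 0.009, and 0.98 with adjusted p = 0.0516 without empty vector A). Its exons overlap Ufsp2 and Lrp2bp on the opposite strand, and Ufsp2 had 57192 counts over the 12 libraries, against 1647 for Ankrd37, so the value is uncertain. Vegfa, the angiogenic growth factor, and P4ha1, a collagen prolyl hydroxylase, are classic targets of HIF1A. Neither passed in any comparison in the edgeR model described above. With the compared groups alone P4ha1 was higher with both mutants over CEBPA V314VW (0.34, adjusted p = 0.0416). Vegfa ran from 107 to 154 CPM and P4ha1 from 55.6 to 120 CPM over the 12 libraries.

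In all, 25 of the 33 genes passed in at least 1 of the 6 edgeR tests over all 12 libraries and 8 in none: Hk1, Pfkm, Pfkfb3, Gapdh, Eno2, Egln1, Vegfa and P4ha1. Of these 8, DESeq2 called 2, Hk1 and Pfkm. Alternative edgeR fits of all 12 libraries called Hk1, Pfkm, Pfkfb3 and Gapdh. Within groups, the libraries with both mutants were the closest to each other, with a median coefficient of variation of 3.67% over the 33 genes, against 16.1% with CSF3R T618I, 8.34% with CEBPA V314VW and 10.6% with empty vector. This was not particular to the 33 genes. Over all genes with enough counts, chi-square per degree of freedom between 2 libraries was 4.11 to 6.9 with both mutants. It was 75 to 327 with CSF3R T618I, 9.09 to 70.7 with CEBPA V314VW and 32.6 to 113 with empty vector.

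Neighboring genes of the same pathways were read from lists of their known members. Of 6 partners in oxygen sensing, 2 rose with CSF3R T618I over empty vector, where 10.0% of all tested genes rose. Hif3a, a HIF family member some of whose forms inhibit HIF1A, had 4.87 CPM with CSF3R T618I and 1.03 with empty vector on average (log2 2.23, adjusted p = 0.000728), and the hydroxylase Egln2 rose by 0.32 (adjusted p = 0.0417), a call lost without any of 10 libraries, all but CSF3R T618I C and CEBPA V314VW A (adjusted p = 0.0561 to 0.154). Arnt, the constant partner of HIF1A, and Vhl, which targets it for degradation, passed in no comparison. With both mutants over empty vector 1 of the 6 rose, where 10.7% of all tested genes rose. It was Epas1 (HIF2A), which averaged 0.667 CPM with both mutants and 0.115 with empty vector (log2 2.50, adjusted p = 0.000893).

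Of 14 other hypoxia-induced genes, 1 rose and 4 fell with CSF3R T618I over empty vector, 3 rose and 4 fell with CEBPA V314VW over empty vector, and 3 rose and 3 fell with both mutants over empty vector. Whether this list differed from the 33 genes was not tested. Its median log2 fold changes were -0.07, -0.06 and 0.09 in the same order. Its counts stand beside 10.0% of all tested genes higher and 9.66% lower for CSF3R T618I over empty vector. For CEBPA V314VW over empty vector the shares were 9.50% and 7.68%, and for both mutants over empty vector 10.7% and 10.7%. Adm was the 1 that rose with CSF3R T618I over empty vector, by 3.35 on the log2 scale (adjusted p = 0.000104). Over empty vector it also rose by 2.46 with CEBPA V314VW (adjusted p = 0.00174) and by 3.32 with both mutants (adjusted p = 8.94e-05). Its level was near the floor, on average 0.041 CPM with empty vector and 0.439 with CSF3R T618I. The interaction of Adm was -2.49 (adjusted p = 0.0427), and -2.54 with DESeq2 (adjusted p = 0.0704). Ak4, a mitochondrial adenylate kinase, averaged 44.1 CPM with CSF3R T618I and 85.7 with empty vector (log2 -0.96, adjusted p = 0.00036). Bnip3l, a relative of Bnip3, fell with CSF3R T618I over empty vector (-0.44, adjusted p = 0.0118) and with both mutants over empty vector (-0.46, adjusted p = 0.00711), the comparison in which Bnip3 rose. Plod2, a collagen-modifying enzyme, averaged 17.5 CPM with CEBPA V314VW and 6.84 with empty vector (log2 1.36, adjusted p = 4.67e-05). Bhlhe40, a transcriptional repressor, averaged 31.5 CPM with CEBPA V314VW and 71.4 with empty vector (log2 -1.18, adjusted p = 3.89e-05).

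Of 10 tested isozymes and side enzymes of glycolysis outside the 33, 3 rose and 2 fell with CSF3R T618I over empty vector, 0 rose and 3 fell with CEBPA V314VW over empty vector, and 1 rose and 3 fell with both mutants over empty vector. Of all tested genes 10.0% rose and 9.66% fell, 9.50% and 7.68%, and 10.7% and 10.7%, in the same order. Bpgm, which makes the hemoglobin regulator 2,3-bisphosphoglycerate and is best known in red cells, averaged 47.6 CPM with CSF3R T618I and 16.7 with empty vector (log2 1.51, adjusted p = 1.92e-05). It was highest in the group in which erythroid markers were highest, and their part in this result was not tested. Fbp1, an enzyme of the reverse pathway, fell by 2.54 on the log2 scale with both mutants over empty vector (adjusted p = 8.1e-05). Slc2a6, a lysosomal hexose transporter, rose by 1.09 with CSF3R T618I over empty vector (adjusted p = 0.000182). Tigar, a phosphatase that lowers fructose 2,6-bisphosphate, fell with CEBPA V314VW over empty vector (-0.90, adjusted p = 0.000332).

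The pentose phosphate pathway branches from glycolysis and makes NADPH and ribose. Of its 7 tested genes, 1 rose and 0 fell with CSF3R T618I over empty vector, where 10.0% and 9.66% of all tested genes did. The 1 that rose was G6pdx, the entry enzyme. It had 395, 414 and 750 CPM with CSF3R T618I, and 349, 318 and 319 with empty vector (log2 0.66, adjusted p = 0.0275). Without CSF3R T618I C its log2 fold change was 0.30 (adjusted p = 0.0086), and it was not past the threshold without empty vector A, B or C (adjusted p = 0.0571 to 0.0925). With CEBPA V314VW over empty vector 0 rose and 2 fell, where 9.50% and 7.68% of all tested genes did. Those that fell were Pgd (-0.60, adjusted p = 0.000384) and Rpe (-0.30, adjusted p = 0.0356). The call of Rpe was lost without any of 7 libraries: empty vector B or C, CEBPA V314VW A or B, or both mutants A, B or C (adjusted p = 0.0574 to 0.109). Among 14 tested genes of pyruvate dehydrogenase and the citrate cycle, 0 passed in either direction for CSF3R T618I over empty vector, for CEBPA V314VW over empty vector and for both mutants over CSF3R T618I in edgeR. In these comparisons 7.68 to 10.1% of all tested genes passed in each direction. With both mutants over CEBPA V314VW 1 rose, Idh3a of the citrate cycle (0.38, adjusted p = 0.00992), and 1 fell, Pdk2, a relative of Pdk1 (-1.11, adjusted p = 0.000522). There 7.79% of all tested genes rose and 10.1% fell. Pdk2 also fell with both mutants over empty vector (-0.63, adjusted p = 0.0189), a call lost without empty vector C or both mutants B or C (adjusted p = 0.0575 to 0.0778). With CSF3R T618I over empty vector the 14 log2 fold changes ran from -0.37 to 0.29.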

How the data were processed

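RNA-seq was carried out on 12 libraries of sorted lineage-negative mouse marrow cells in 4 groups of 3, grouped by their labels. The authors used Trimmomatic for trimming, STAR for alignment and DESeq2 for testing. The submitters' processing notes name STAR, DESeq2 and the mm10 build. The deposited table holds raw counts, 1 column per library, with no normalization. What counted the reads, on which annotation and with which strand setting, is not given in the sources used here, so reads of overlapping or antisense genes cannot be separated. Of 51918 lines, 6 repeated a gene and were dropped, and 0 value columns lacked a matching sample. cDNA was amplified by PCR without molecular identifiers, so counts are not independent molecules.

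The edgeR package (4.0.16, under R 4.3.3) supplied the filter, filterByExpr by group, which left 16360 genes, then TMM factors and a robust quasi-likelihood F test. A single model held CSF3R, CEBPA and their interaction over all 12 libraries, and 5 differences between groups and the interaction were read from it, with Benjamini-Hochberg adjustment over all tested genes. Standard errors were derived from F and the log2 fold change. The common biological coefficient of variation was 0.166. Where cultures or animals were shared is not known, so p-values measure the spread between these libraries. Lengths are the union of exons in GENCODE M21 on mm10; promoters are RefSeq on GRCm38.p6. Near-identical copies were sought with blastn at 100 bases or more and 95% identity or more.

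The members and lists were chosen with earlier results of these data known. Values for all 12 libraries are given for the genes past an adjusted p of 0.05 with an absolute log2 fold change over 1 and for others the comparisons turn on. Alternatives were RLE factors, total counts, no filter, DESeq2, the compared groups alone, a replicate block, each library left out, and, added after seeing the data, a length trend taken out. The edgeR procedure was tested on simulated data. The promoter of Slc2a3 was not used here.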

Additional observations from a re-analysis of the deposited data

Results flagged for a closer look

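Hk3, the myeloid hexokinase, was the gene of the 33 for which the effect of CSF3R T618I differed with and without CEBPA V314VW by a test of the difference itself. In edgeR the interaction was 0.93 on the log2 scale (adjusted p = 0.0201). CSF3R T618I changed Hk3 by -0.65 when added to CEBPA V314VW and by -1.58 over empty vector. All 3 libraries with both mutants lay above all 3 with CSF3R T618I alone. Over 18 alternatives the adjusted p of the interaction ran from 0.000265 to 0.0740. Groups of 3 libraries are too small for a check of single outlying samples.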

How the results depend on the processing

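Of 69 calls among the 33 genes, 49 held under all alternatives in which they were tested, 20 lost significance under at least 1, and none changed direction. DESeq2 lost 0 calls, RLE factors 1, the length trend 1, the replicate block 5, total counts 6, no filter 9 and the compared groups alone 10. Counts that moved by more than 1.5 times are as follows. For CSF3R T618I over empty vector, 5 genes in place of 14 rose with the compared groups alone, and 8 to 15 with 1 library left out; 4 in place of 2 fell with total counts, and 2 to 4 with 1 library left out. For CEBPA V314VW over empty vector, 3 in place of 0 rose with total counts, 2 with DESeq2, 1 with the compared groups alone, 2 with the length trend taken out and 0 to 2 with 1 library left out. For the interaction, 2 in place of 1 were higher with the length trend taken out and 0 to 5 with 1 library left out. The share of all tested genes moved as well, from 0.501% higher for the interaction to 5.99% without CSF3R T618I C. The causes of these shifts were not tested.

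Deviations from the group mean correlated at -0.35 to 0.29 between same-lettered libraries of different groups, and at -0.29 to 0.39 between differently lettered ones. Such deviations also hold the length trend, so this cannot tell whether libraries of the same letter shared a mouse or batch. The letters were not taken as pairs, and the replicate block was fitted as an alternative. With the replicate block, 13 genes rose and 2 fell with CSF3R T618I over empty vector, 0 rose and 9 fell with CEBPA V314VW, and 7 rose and 5 fell with both mutants. Both mutants gave 4 higher and 6 lower over CSF3R T618I, 15 higher and 2 lower over CEBPA V314VW, and the interaction 1 and 0. Library depth leaves the scarce genes Eno2, Aldoc, Ldhb and Ankrd37, at 0.233 to 11.0 CPM, the least precise by counting error.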
